A study of Mus musculus with 8 samples.

Results

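The natriuretic peptide system comprised 7 genes chosen by name: the peptide hormones Nppa, Nppb and Nppc, the processing enzyme Corin, and the receptors Npr1, Npr2 and Npr3. Of these, 6 had a row among the 30445 genes of the deposited table, and Nppc was not analysed here. RNA came from hearts of C57 mice 8 weeks after transverse aortic constriction (TAC), a surgical narrowing of the aorta that raises the pressure against which the left ventricle pumps. The design set 4 libraries labelled Mertk knockdown against 4 wildtype libraries. Both groups carried the constriction, and sham-operated hearts were not analysed here. The labels gave neither the method of the knockdown nor the cells it reached, and did not tie replicates to animals, so p-values measure the spread between these libraries, which may be technical.

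Mertk, the phagocyte receptor named in the labels, had 12.8, 12.3, 10.6 and 11.8 CPM (read counts per library total, with TMM factors applied) in the libraries labelled Mertk knockdown, against 11.02, 10.4, 10.5 and 12.3 CPM in wildtype libraries. The log2 difference was 0.10 (edgeR adjusted p = 0.766, SE 0.11), so the transcript was not lower in the libraries labelled knockdown, and directions below follow the labels alone.

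As background, atrial natriuretic peptide (ANP, from Nppa) and B-type natriuretic peptide (BNP, from Nppb) are hormones that heart muscle releases when stretched. ANP is stored mainly in the atria, and both genes are induced in ventricular muscle under load. Corin is a membrane protease of cardiomyocytes that cleaves the ANP precursor. Npr1 binds ANP and BNP and makes cyclic GMP, Npr2 does the same for C-type natriuretic peptide (CNP, from Nppc), and Npr3 lacks a cyclase domain and clears the peptides from the circulation.

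All peptides of the family carry a ring closed by a pair of cysteines, which the receptors recognise. The coding sequence of the ring is shown for Nppb and Nppc only, and that of Nppa was not read here. Capitals mark the cysteine codons that close the ring. The sequences were read from GENCODE M21 transcripts on GRCm38 (mm10), and each lay within exon 2 of its transcript. That of Nppb lies at chr4:147986464-147986514 on the plus strand and that of Nppc at chr1:86669667-86669717 on the minus strand.
Nppb ring: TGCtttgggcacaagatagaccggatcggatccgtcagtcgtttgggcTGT
Nppc ring: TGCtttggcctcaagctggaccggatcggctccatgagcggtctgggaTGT
Over these 51 bases, Nppb and Nppc were identical at 40, and they coded for the same amino acid at 13 of 17 codons. Both stretches were located by an amino acid pattern that fixed most of these codons, so much of the likeness follows from the search.

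Nppa and Nppb are neighbours on chromosome 4, with 13516 bases between the end of Nppb and the start of Nppa. Their promoters are shown because the peptide genes were the members that varied most between libraries. The 250 bases before the RefSeq start on GRCm38.p6 are printed, and capitals mark matches to the motifs searched. The Nppa window is chr4:148000472-148000721 and the Nppb window is chr4:147985650-147985899, both on the plus strand.
Nppa promoter: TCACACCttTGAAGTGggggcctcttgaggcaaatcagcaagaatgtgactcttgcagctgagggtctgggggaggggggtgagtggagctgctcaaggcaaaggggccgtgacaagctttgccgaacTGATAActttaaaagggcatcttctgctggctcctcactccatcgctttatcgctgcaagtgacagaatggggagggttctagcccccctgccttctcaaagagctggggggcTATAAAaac
Nppb promoter: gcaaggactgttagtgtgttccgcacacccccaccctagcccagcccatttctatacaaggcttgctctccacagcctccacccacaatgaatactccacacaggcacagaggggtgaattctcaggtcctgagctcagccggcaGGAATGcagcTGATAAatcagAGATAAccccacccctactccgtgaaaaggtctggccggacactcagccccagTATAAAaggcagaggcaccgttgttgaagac
Both strands were searched for a promoter element that sits near many start sites, spelled TATAAA. Motifs bound by GATA factors were searched as TGATAA and, in a second form, as AGATAA. The TEAD motif was searched as CATTCC, and a T-box motif as TCACACC. The motif of NKX2-5 was searched as TNAAGTG, and the CArG box of serum response factor by its usual consensus. Positions count back from the RefSeq start. The Nppa window held TCACACC at −250 to −244, TNAAGTG at −241 to −235, TGATAA at −122 to −117 and TATAAA at −9 to −4. The Nppb window held CATTCC on the minus strand at −105 to −100, TGATAA at −95 to −90, AGATAA at −84 to −79 and TATAAA at −31 to −26. None of these matches overlapped another. The deposited start of Nppb lay 112 bases upstream of the RefSeq start, inside this window. Of 32851 RefSeq windows of 250 bases, 12.4% held TATAAA, 7.94% TGATAA, 9.99% AGATAA, 12.6% CATTCC, 3.33% TCACACC and 10.1% TNAAGTG. The CArG box was in 1.47% of windows and in none of the members' windows. All 7 members were found in the RefSeq table. The Nppc window held a TATA box alone, and the windows of Corin, Npr1, Npr2 and Npr3 held no match.

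Total counts were 63378755 to 68762911 in the libraries labelled Mertk knockdown and 59287621 to 71571173 in wildtype libraries. The tissue label was checked with Tnnt2 (cardiac troponin T), at 4013 to 5650 CPM over all libraries, and Myl2 (ventricular myosin light chain), at 3608 to 4972 CPM. Libraries stood apart in markers of other cells. The summed level of the atrial genes Sln, Myl7 and Myl4 was 1.34, 0.816, 0.909 and 606 CPM in the libraries labelled Mertk knockdown, and 1.03, 3.71, 338 and 189 CPM in wildtype libraries. The sum of 10 hepatocyte markers was 222, 205, 229 and 161 CPM in the libraries labelled Mertk knockdown, and 223, 10.3, 16.8 and 9.52 CPM in wildtype libraries. Results are therefore also given in the 5 libraries with atrial sums of at most 50 CPM (3 labelled Mertk knockdown, 2 wildtype) and in the 5 with hepatocyte sums above 100 CPM, which include wildtype replicate 1 as the only wildtype library, assumed to vary like the others. In bulk RNA, fewer cells of a type and less RNA per cell cannot be told apart.

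Of the 6 members, 0 were called at an adjusted p under 0.05 by edgeR, where 0.647% of the 17787 genes tested were called (0.275% higher and 0.371% lower). At an unadjusted p under 0.05, 1 member, Corin, passed, against 12.4% of genes. DESeq2 called 1 member, also Corin, where it called 4.39% of 15317 genes, and 2.45% as lower. All 6 members passed the filter on low counts. In CPM, every member's groups overlapped, while the groups of 8.07% of genes did not, including 3.9% with the libraries labelled knockdown lower.

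Compared per gene length, the order of levels was the same in all 8 libraries: Nppa, Nppb, Corin, Npr2, Npr1 and Npr3, from high to low. FPKM (fragments scaled to gene length and library total, as deposited) is used for levels between genes. Neighbours in this order had separate ranges over the libraries, except Nppa and Nppb: the lowest Nppa level was 182 FPKM and the highest Nppb level 350 FPKM. The members differed widely in how far they varied. The highest library exceeded the lowest by 13.7-fold for Nppa, 4.60-fold for Nppb, 3.02-fold for Npr3 and 2.13-fold for Corin. The cyclase receptors Npr1 and Npr2 varied by 1.26-fold and 1.23-fold.

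**Figure D1:**
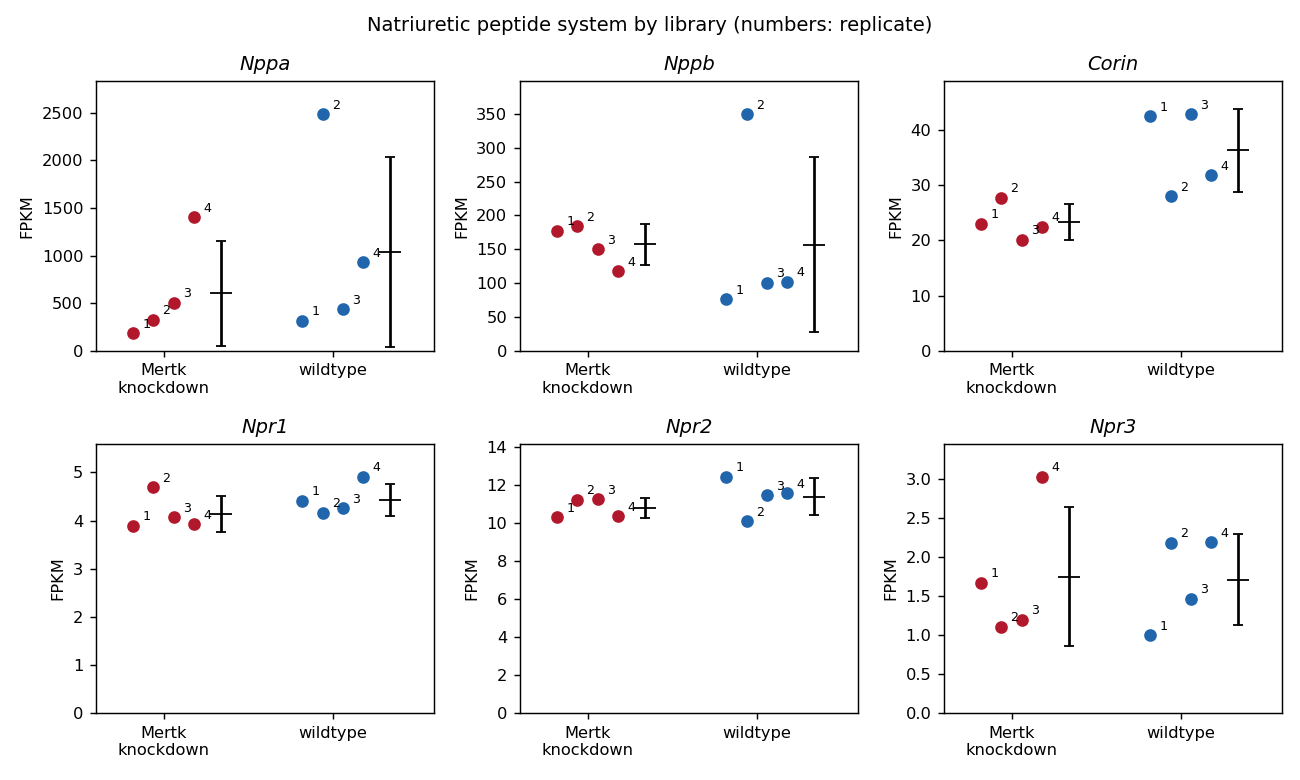
FPKM of each member in every library, with the libraries labelled Mertk knockdown left of wildtype; points are libraries numbered by replicate, and bars give the mean and SD (n = 4 each). Wildtype replicate 2 is the highest for Nppa (2486 FPKM) and Nppb (350 FPKM). For Corin, all 4 libraries labelled knockdown lie below the lowest wildtype library, by a narrow margin (27.8 and 28.0 FPKM).

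Nppa (ENSMUSG00000041616, chr4:148000722-148002079, plus strand), the gene of ANP, had 182, 325, 503 and 1405 FPKM in the libraries labelled Mertk knockdown, against 317, 2486, 438 and 927 FPKM in wildtype libraries. The groups overlapped between 317 and 1405 FPKM. Labelled knockdown replicate 1 lay below every wildtype library, and wildtype replicate 2 lay above every library labelled knockdown. The highest library stood above its next at 1405 and 503 FPKM in the group labelled knockdown, and at 2486 and 927 FPKM in wildtype. Neither was among the libraries flagged below on the log2 scale. The means were 604 ± 550 and 1042 ± 998 FPKM (SD, n = 4 each). The difference on the log2 scale was −0.79 (edgeR adjusted p = 0.770; SE 0.83; 95% interval −2.74 to 1.15), so changes between 0.150-fold and 2.22-fold were within the interval. It was −2.04 (SE 0.85, adjusted p = 0.739) in the libraries low in atrial markers. The wildtype libraries there were replicates 1 and 2 (317 and 2486 FPKM), and labelled knockdown replicate 4 (1405 FPKM) was left out. That value therefore leans on wildtype replicate 2. In the libraries with hepatocyte markers the difference was 0.89, where it rests on wildtype replicate 1, the lowest wildtype library. Without wildtype replicate 2 it was 0.07.

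Nppa is itself abundant in atrial muscle, so the atrial markers are given beside it. The list of 7 atrial genes, of which 5 passed the filter, summed to 18.1 to 724 CPM in the libraries labelled Mertk knockdown and 24.3 to 405 CPM in wildtype libraries. Sln was at 0 in replicates 1, 2 and 3 labelled knockdown and in wildtype replicate 1, and at 0.151 CPM in wildtype replicate 2, the library with the most Nppa. The highest library of the other group, labelled knockdown replicate 4, also had the highest atrial sum. Bmp10, another gene of the atrial list, was at 0 in that library and at 11.9 CPM in wildtype replicate 4. Wildtype replicates 3 and 4, where Sln, Myl7 and Myl4 summed to 338 and 189 CPM, had 438 and 927 FPKM of Nppa. With an atrial score as covariate, the log2 difference of Nppa was −0.92 (SE 0.80, edgeR adjusted p = 0.737). The part of atrial tissue in the Nppa levels of single libraries was not tested.

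**Figure D2:**
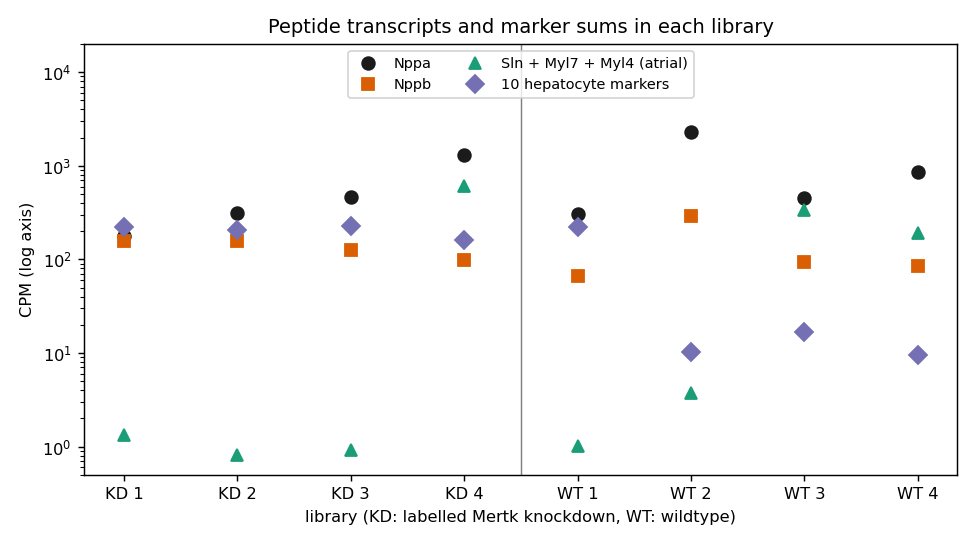
CPM on a log axis of Nppa and Nppb and the marker sums in each library, libraries labelled Mertk knockdown (KD) left of wildtype (WT). Nppa is highest in wildtype replicate 2, where Sln, Myl7 and Myl4 sum to 3.71 CPM, and next in labelled knockdown replicate 4, where they sum to 606 CPM.

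The antisense gene Gm13054 (chr4:148001091-148004014, minus strand) overlaps Nppa. Its level was 0.588, 0.408, 1.22 and 3.27 CPM in the libraries labelled Mertk knockdown, and 0.820, 9.66, 0.538 and 2.09 CPM in wildtype libraries. The log2 difference was −1.25 (SE 1.03, edgeR adjusted p = 0.690). Its level amounted to 0.1196% to 0.418% of the Nppa level in the same library. The sources used here do not give strand use in counting, so reads of the overlapping pair may not be separable.

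Nppb (ENSMUSG00000029019, chr4:147985788-147987205, plus strand), the gene of BNP, had 177, 184, 149.9 and 117 FPKM in the libraries labelled Mertk knockdown, against 76.0, 350, 100.4 and 101.7 FPKM in wildtype libraries. All 4 libraries labelled knockdown lay above wildtype replicates 1, 3 and 4 and below wildtype replicate 2. The means were 157 ± 30.5 and 157 ± 129 FPKM (SD, n = 4 each), a log2 difference of 0.00 (95% interval −1.11 to 1.11, SE 0.48, edgeR adjusted p = 0.999). A single library decided this value. Without wildtype replicate 2, Nppb was 1.66-fold higher in the libraries labelled knockdown (log2 0.73, SE 0.19), which did not pass the test either (adjusted p = 0.163). It was −0.29 in the libraries low in atrial markers and 1.03 in those with hepatocyte markers, whose only wildtype library is the one with the least Nppb (76.0 FPKM).

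The ratio of Nppa to Nppb within a library does not depend on library scaling. It was 1.03, 1.77, 3.35 and 11.99 in the libraries labelled Mertk knockdown, against 4.17, 7.11, 4.36 and 9.12 in wildtype libraries. Replicates 1, 2 and 3 labelled knockdown lay below every wildtype library, and replicate 4 above all of them. On the log2 scale the means were 1.55 ± 1.53 and 2.55 ± 0.55 (SD, n = 4 each), a difference of −1.005 (two-sided exact permutation test, p = 0.314, or 0.629 adjusted over the 2 ratios tested). The smallest p this design allows is 0.0286. Without labelled knockdown replicate 4, the library with the highest atrial sum, the difference was −1.68, a value that restates the order just given. Leaving out each of the other libraries gave −1.17 to −0.50.

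**Figure D3:**
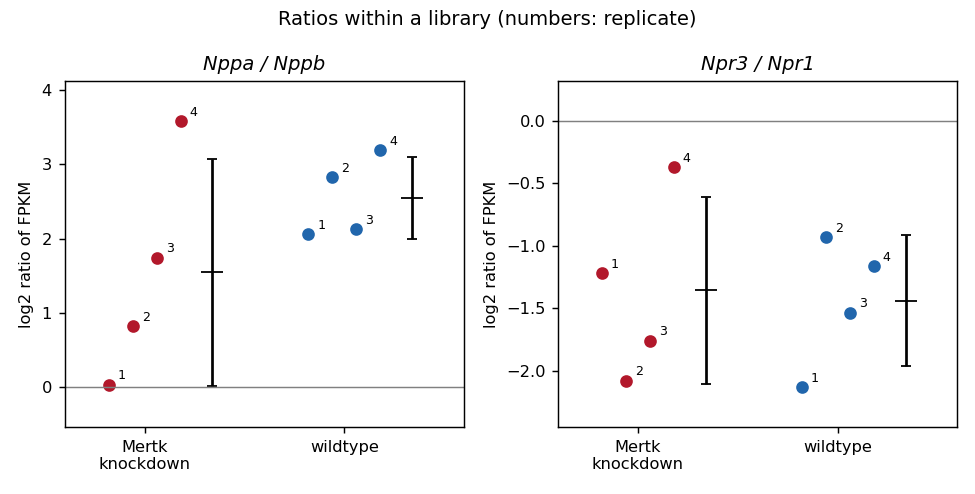
Log2 FPKM ratios of Nppa to Nppb and of Npr3 to Npr1 in each library, with the libraries labelled Mertk knockdown left of wildtype; points are libraries numbered by replicate, and bars give the mean and SD (n = 4 each). For Nppa to Nppb, replicates 1, 2 and 3 labelled knockdown lie below all wildtype libraries and replicate 4 (3.58) lies above them.

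Corin (ENSMUSG00000005220, chr5:72300025-72504473, minus strand), the protease that activates ANP, had 23.0, 27.8, 20.1 and 22.5 FPKM in the libraries labelled Mertk knockdown, against 42.5, 28.0, 42.9 and 31.8 FPKM in wildtype libraries. In FPKM the groups were just separate (27.8 FPKM was the highest labelled knockdown value and 28.0 FPKM the lowest wildtype value), and in CPM they overlapped (165.0 and 162.5 CPM). The means were 23.3 ± 3.21 and 36.3 ± 7.52 FPKM (SD, n = 4 each). The level was 0.630-fold that of wildtype (log2 −0.67, SE 0.18, 95% interval −1.07 to −0.27), at an unadjusted p of 0.00407 in edgeR's quasi-likelihood test and an adjusted p of 0.162. DESeq2 gave −0.67 with an adjusted p of 0.0135.

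The sign of the Corin difference held in all 19 alternative settings, from −0.9993 to −0.54. It was −0.56 (adjusted p = 0.710) in the libraries low in atrial markers and −0.88, against wildtype replicate 1 alone, in those with hepatocyte markers. Without wildtype replicate 2 it was −0.78 (adjusted p = 0.0911). Corin is made by cardiomyocytes. The summed cardiomyocyte markers were 33445 to 39050 CPM in the libraries labelled Mertk knockdown and 21340 to 32750 CPM in wildtype libraries, ranges that did not overlap. Myh6 and Actc1, whose own groups did not overlap, are part of that list. Without Myh6 the sums were 16468 to 18132 CPM in the libraries labelled Mertk knockdown and 13133 to 16738 CPM in wildtype libraries, and overlapped. Actc1 stayed in these sums, at 7358 to 8380 CPM in the libraries labelled Mertk knockdown and 3258 to 7332 CPM in wildtype libraries. Tnnt2, also on the list, overlapped between the groups. It had 4428, 4507, 5225 and 4534 CPM in the libraries labelled Mertk knockdown, against 5650, 4013, 5548 and 5175 CPM in wildtype libraries. The sums therefore depend on which markers are counted. The part of these markers in the Corin difference was not tested.

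Npr1 (ENSMUSG00000027931, chr3:90450591-90465866, minus strand), the receptor for ANP and BNP, had 3.89, 4.69, 4.07 and 3.92 FPKM in the libraries labelled Mertk knockdown, against 4.41, 4.17, 4.26 and 4.91 FPKM in wildtype libraries. The groups overlapped. With an edgeR adjusted p of 0.682, the log2 difference was −0.12 (95% interval −0.33 to 0.10, SE 0.10).

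Npr2 (ENSMUSG00000028469, chr4:43631935-43651244, plus strand), the receptor for CNP, had 10.3, 11.2, 11.3 and 10.4 FPKM in the libraries labelled Mertk knockdown, against 12.5, 10.1, 11.5 and 11.6 FPKM in wildtype libraries. Here too the groups overlapped. The log2 difference was −0.10 (95% interval −0.32 to 0.11, SE 0.10), with an edgeR adjusted p of 0.729. For both cyclase receptors the interval is narrow next to those of the peptides.

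Npr3 (ENSMUSG00000022206, chr15:11839896-11907287, minus strand), the clearance receptor, had 1.67, 1.11, 1.20 and 3.03 FPKM in the libraries labelled Mertk knockdown, against 1.01, 2.19, 1.47 and 2.19 FPKM in wildtype libraries. The highest library was labelled knockdown replicate 4, and the groups overlapped. The log2 difference was 0.02 (95% interval −0.78 to 0.82, SE 0.35), with an edgeR adjusted p of 0.991. The 4 endocardial markers, genes of a cell layer that expresses Npr3 in the mouse, summed to 63.8 to 100.2 CPM in the libraries labelled Mertk knockdown and 81.0 to 98.9 CPM in wildtype libraries. The log2 ratio of Npr3 to Npr1 was −1.36 ± 0.75 in the libraries labelled Mertk knockdown and −1.44 ± 0.53 in wildtype libraries (SD, n = 4 each). These differed by 0.08 (p = 0.886 in the exact permutation test, also after adjustment). In the libraries with hepatocyte markers, against wildtype replicate 1 alone, the log2 difference was 0.78 for Npr3 and 0.78 for the ratio. Wildtype replicate 1 has the least Npr3 of all libraries (1.01 FPKM). In those low in atrial markers the differences were −0.24 and −0.15.

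**Figure D4:**
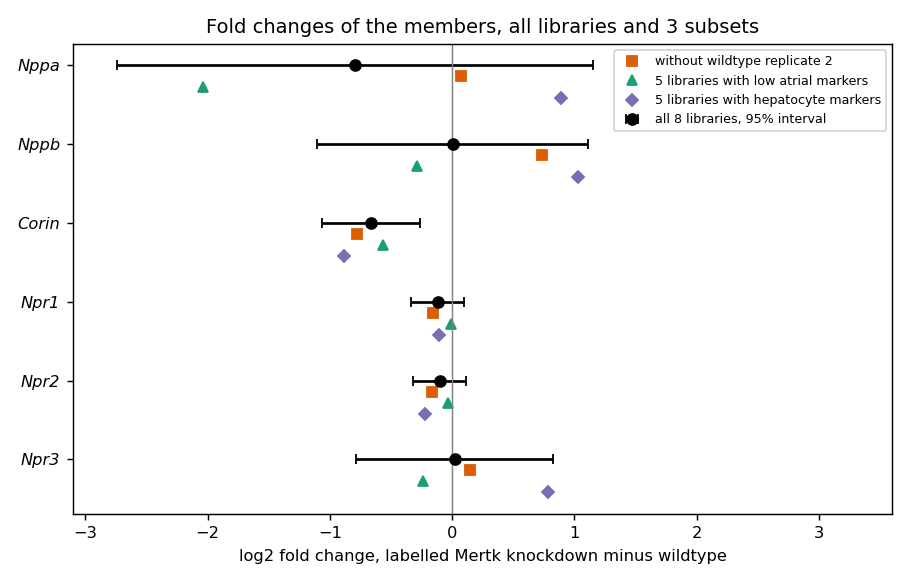
Log2 fold change of each member, labelled Mertk knockdown minus wildtype, from the fit of all 8 libraries (black, with its 95% interval) and from 3 library subsets (coloured, value only). Npr1 and Npr2 stay near 0, Corin stays below 0 (−0.88 to −0.56 over these fits), and Nppa runs from −2.04 to 0.89.

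The genes around the system were taken from lists of 62 genes, of which 58 were tested. None was called higher and 1, Hand2, was called lower, and their median log2 fold change was 0.02 beside −0.00 over all genes tested. In 7 of the 58 the groups did not overlap, beside 8.07% of all genes. Of the peptide-processing and degrading enzymes, 0 of 6 were called, with a median of 0.29. Ide (insulin-degrading enzyme, which also cleaves natriuretic peptides) stood at 0.45 on the log2 scale (edgeR adjusted p = 0.304, SE 0.17) and Dpp4 at 0.67 (adjusted p = 0.416). Furin, which processes the BNP precursor, was at −0.25 (adjusted p = 0.505) and Mme (neprilysin) at 0.66 (adjusted p = 0.484).

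Downstream of the receptors, 0 of 14 cyclic GMP effectors and phosphodiesterases were called, with a median of −0.04. Rgs2, a G-protein regulator that cyclic GMP signalling activates, had 9.86, 12.1, 13.1 and 22.9 CPM in the libraries labelled Mertk knockdown, against 37.3, 10.5, 44.3 and 29.8 CPM in wildtype libraries. Its groups overlapped through wildtype replicate 2, and its log2 fold change of −1.07 did not pass (SE 0.45, edgeR adjusted p = 0.385). Pde1a was at −0.43 (adjusted p = 0.503) and Prkg1 (the cyclic GMP-dependent kinase) at −0.08 (adjusted p = 0.855).

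Soluble guanylate cyclase, the nitric oxide receptor that makes the same messenger, had 0 of 3 genes called, with a median of 0.37. Its subunit gene Gucy1b1 had 20.4, 18.0, 21.3 and 20.1 CPM in the libraries labelled Mertk knockdown, against 16.2, 16.2, 15.4 and 14.1 CPM in wildtype libraries. These groups did not overlap, and the log2 difference was 0.37 (SE 0.09), with adjusted p-values of 0.146 from edgeR and 0.0236 from DESeq2. Gucy1a2 was at 0.37 (edgeR adjusted p = 0.604). Gucy2c, Gucy2e and the Npr3 ligand gene Ostn did not pass the filter on low counts.

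Among 18 transcription factors known to act on Nppa and Nppb, 1 was called, lower, with a median of −0.02. Hand2, a basic helix-loop-helix factor of heart development, had 34.2, 36.7, 31.3 and 33.1 CPM in the libraries labelled Mertk knockdown, against 65.6, 57.6, 67.4 and 61.7 CPM in wildtype libraries. The log2 difference was −0.90 (edgeR adjusted p = 0.00199, SE 0.09), and in the 5 libraries low in atrial markers it was −0.85 (adjusted p = 0.178). The listed factors whose motifs were searched in the promoters did not pass. Gata4 was at 0.09 (edgeR adjusted p = 0.796) and Gata6 at −0.16 (adjusted p = 0.795). Tbx5 was at −0.26 (adjusted p = 0.772), Tbx20 at −0.19 (adjusted p = 0.678) and Tbx3 at −0.53 (adjusted p = 0.594). Nkx2-5 was at −0.00 (adjusted p = 0.991), Tead1 at 0.17 (adjusted p = 0.772) and Srf at 0.33 (adjusted p = 0.252). Hand2 and Srf were the 2 of the 18 whose groups did not overlap, beside 8.07% of all genes.

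Of 10 load-responsive cardiomyocyte genes, which are commonly read beside Nppa and Nppb, 0 were called, with a median of 0.14. In this list 6 genes lay above 0 and 4 below. The list was not split by the direction in which each gene responds to load, so its median does not measure a load response. Ankrd1 had 2007 ± 127 CPM in the libraries labelled Mertk knockdown and 3765 ± 1131 CPM in wildtype libraries (log2 −0.91, SE 0.20, edgeR adjusted p = 0.0845). Myh6, the adult alpha myosin heavy chain, differed by 0.74 (adjusted p = 0.160, SE 0.20). DESeq2 called both, and also Atp2a2, the calcium pump of the sarcoplasmic reticulum (log2 0.43, DESeq2 adjusted p = 0.0168). The groups did not overlap in 4 of the 10 genes (Myh6, Ankrd1, Actc1 and Atp2a2), beside 8.07% of all genes. Myh7, the beta myosin heavy chain that mouse ventricles re-express under load, had 2077, 6157, 1380.0 and 1201 CPM in the libraries labelled Mertk knockdown, against 10697, 6665, 10593 and 4505 CPM in wildtype libraries. Its groups overlapped through labelled knockdown replicate 2 and wildtype replicate 4, and it did not pass (log2 −1.59, SE 0.58, edgeR adjusted p = 0.327). Of the 8 nearest protein-coding genes beside Nppa and Nppb on chromosome 4, which leaves out the antisense gene Gm13054 given above, 7 were tested and 0 called, with a median of 0.03. Among these 7, the largest differences were Fv1 at 0.41 (adjusted p = 0.437) and Plod1 at 0.30 (adjusted p = 0.583), while Clcn6 was at 0.03 (adjusted p = 0.960).

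**Figure D5:**
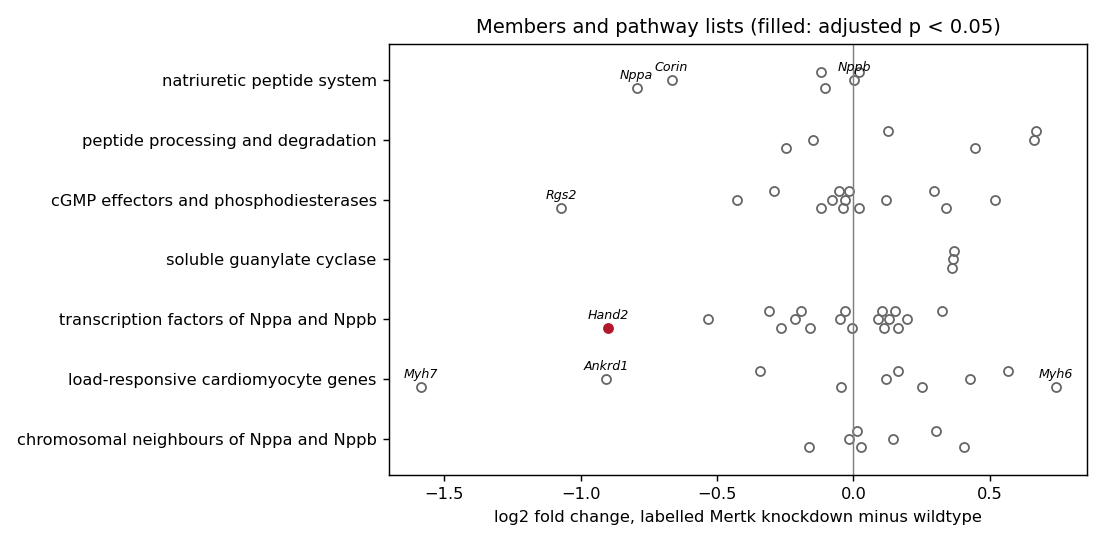
Log2 fold change, labelled Mertk knockdown minus wildtype, of the members and of every tested gene of the pathway lists; each point is a gene and filled points passed the edgeR test. The single filled point is Hand2 (−0.90).

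Genes were also ranked by how closely their levels followed Nppa, Nppb or Npr3, by Pearson's r of log2 CPM over 8 libraries among 7659 genes of at least 10 CPM on average, leaving out predicted and clone names. These are descriptions over libraries that share depth and group, with no p. With 7659 genes searched over 8 libraries, high values of r can arise from the search alone, so they show no link between genes. Nppa was followed most closely by Klf10 (r = 0.959), Crtap (0.939) and Wls (0.936). Nppb was followed by Ankrd23 (0.978), the sodium-calcium exchanger gene Slc8a1 (0.967) and Adam9 (0.950). Npr3 was followed by Ttbk2 (0.943), Tcaf1 (0.932) and Pam (0.908). Ankrd23 had 770, 744, 734 and 607 CPM in the libraries labelled Mertk knockdown and 534, 923, 599.99 and 556 CPM in wildtype libraries, high in wildtype replicate 2 as Nppb was. Pam, a peptide-amidating enzyme that is also on the processing list, had 604, 599.8, 546 and 1008 CPM in the libraries labelled Mertk knockdown and 563, 967, 724 and 802 CPM in wildtype libraries.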

How the data were processed

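Poly(A) RNA was sequenced from 8 mouse heart libraries, 4 per group, as paired ends after dUTP strand marking, per the labels' protocols. The authors deposited a table of raw read counts and FPKM per gene, per the file headers. The submitters' processing notes name build mm10 and the tools StringTie 2.1.6, HISAT2 2.2.1, cutadapt 1.9, edgeR and DESeq2. Strand use in counting and the annotation release are not given in the sources used here.

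Counts were tested as deposited with edgeR 4.0.16 (quasi-likelihood F test, TMM, filterByExpr, R 4.3.3), adjusted over 17787 genes by the Benjamini-Hochberg method, with calls at an adjusted p under 0.05. The SE is the log2 fold change divided by the square root of F. Alternatives were DESeq2 1.42.0, limma 3.58.1 on log2(FPKM + 1) and log2(FPKM + 0.1), other scalings, no filter, covariates, a replicate block, leaving out each library, and the library subsets. The subsets were chosen after seeing the data. Ratios of FPKM were compared by exact permutation over libraries. The script was tested on simulated data.

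The deepest library held 71571173 counts and the shallowest 59287621. A count of 0 allows up to 3 counts, or 0.0506 CPM in the shallowest; floors cover counting error only. Within groups, library pairs differed beyond sampling noise (37.89 to 198.7 for the chi-square over its degrees of freedom).

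Genes named beside the members were every called gene of a pathway list or, where none was called, the list's 2 lowest p-values. Furin, Mme, Prkg1, Clcn6, Myh7, Atp2a2, Actc1 and the factors matching the motifs were added after their values were seen. Members and lists were chosen with earlier results of these data known.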

Additional observations from a re-analysis of the deposited data

Results flagged for a closer look

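In groups of 4 libraries, 58 were examined for a library far from its other 3, and 4 stood out; chance gives about 5% of groups. The gap to the nearest library is given as a share of the group's range in log2 CPM. Pam was highest in labelled Mertk knockdown replicate 4 (1008 CPM, next 604 CPM, share 0.836). Pde1a was highest in the same library (6.50 CPM, share 0.843). Gucy1a2 was lowest in wildtype replicate 4 (0.991 CPM, share 0.934). Slc8a1 was highest in wildtype replicate 2 (338 CPM, share 0.907), the library with the most Nppb. Slc8a1 and Pam were screened because they had been chosen for following Nppb and Npr3. Their high libraries therefore restate that choice, and the 5% does not apply to them.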

How the results depend on the processing

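Npr1 and Npr2 kept their direction and their side of the threshold in all 19 alternatives, and Corin kept its direction. The cause of the shifts below was not tested. The number of genes called, 115 with edgeR, was 672 by DESeq2, 70 and 69 by limma on log2(FPKM + 1) and log2(FPKM + 0.1), 58 with an atrial score and 18 with a hepatocyte score as covariate, 6 in the libraries low in atrial markers, 42 in those with hepatocyte markers and 44 to 265 leaving out a library each. Pathway genes called, 1 with edgeR, were 5 by DESeq2, 0 and 3 in those subsets and 1 to 3 leaving out a library each. DESeq2 alone called Corin (−0.67, adjusted p = 0.0135). Npr3 (0.02) was −0.0023 and −0.014 by limma with pseudocounts 1 and 0.1, 0.77 with the hepatocyte score, 0.78 with hepatocyte markers, −0.24 with low atrial markers and −0.36 to 0.18 leaving out a library each. Nppb (0.00) was −0.14 with the atrial score, −0.29 with low atrial markers and −0.22 to 0.73 leaving out a library each. Nppa (−0.79) was 0.96 with the hepatocyte score, 0.89 with hepatocyte markers and −1.62 to 0.074 leaving out a library each. Pde1a was 0.041 with hepatocyte markers. The log2 ratio of Nppa to Nppb differed by −1.68 to −0.50 leaving out a library each. That of Npr3 to Npr1 did so by −0.25 to 0.32, by −0.15 with low atrial markers and by 0.78 with hepatocyte markers.

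Same-numbered libraries did not deviate together in every pair (correlations from −0.01 to 0.18). Pairs 1 and 4 exceeded the best match with a wildtype library of another number, and pairs 2 and 3 did not. Whether the numbers pair the libraries is therefore not settled by this check. With the number as a replicate block, 24 genes were called and Npr3 was −0.034.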

Other observations

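Other cell types also varied between libraries. The 6 fibroblast markers summed to 502 to 921 CPM in the libraries labelled Mertk knockdown and 497 to 1390 CPM in wildtype libraries, with the highest value in wildtype replicate 2, the library highest in Nppa and Nppb. The 6 endothelial markers summed to 627 to 803 CPM in the libraries labelled Mertk knockdown and 515 to 603 CPM in wildtype libraries, so these ranges did not overlap. The 5 macrophage markers summed to 85.5 to 102 CPM in the libraries labelled Mertk knockdown and 101 to 161 CPM in wildtype libraries. Adipocyte markers summed to 57.3 CPM in wildtype replicate 3 and to at most 3.20 CPM in the other libraries. These sums were not tested.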
